A study of Homo sapiens with 6 samples.

Results

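The respiratory chain and ATP synthase of human mitochondria are built from proteins of both genomes, and the mRNAs for both were followed here in HEK293T cells that had received a miR-34a duplex or a control oligonucleotide. The genes were chosen by symbol: the protein-coding genes of the count table that begin with NDUFA, NDUFB, NDUFC, NDUFS, NDUFV, UQCR, COX4, COX5, COX6, COX7, COX8 or ATP5, together with SDHA, SDHB, SDHC, SDHD, CYC1, CYCS and the 13 protein genes of mitochondrial DNA. This gave 113 of the 63140 genes in the table, 100 nuclear and 13 mitochondrially encoded. HEK293T is an immortalised human embryonic kidney line that carries adenoviral and SV40 oncogenes. The miR-34a group (3 libraries) was transfected with the miR-34a duplex and the control group (3 libraries) with the AllStars negative control, which the sample labels call an siRNA and the series text a miRNA. RNA of both groups was taken 18 h after transfection, and the 3 samples of each group are described as biological replicates of this single cell line. Libraries held between 24728662 and 36650331 counts. Whether the replicates were transfected on separate days is not given in the sources used here, so p-values measure the spread between these 6 libraries.

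Oxidative phosphorylation passes electrons from NADH and succinate through complexes I and II to ubiquinone, on to complex III, cytochrome c and complex IV, and uses the proton gradient made on the way to drive ATP synthase, complex V. Complex II is wholly nuclear, while complexes I, III, IV and V each mix nuclear subunits with a few that mitochondria translate from their own mRNAs. Nuclear and mitochondrial mRNAs are made by separate polymerases and decay in separate compartments. Argonaute loaded with miR-34a pairs through the miRNA seed mainly with 3′ untranslated regions (UTRs) of cytosolic mRNAs, so the nuclear mRNAs are the ones it meets there.

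Markers of the labelled cell line were present. The neuronal intermediate filament genes NEFL, NEFM and INA, a known trait of HEK293 cells, together with VIM and KRT18, were read at 36.1 CPM or more in every library (CPM, counts scaled to a common library size by the TMM method), while KRT8 lay between 11.2 and 12.0 CPM and the kidney factor PAX2 between 1.14 and 2.24 CPM. Markers of leukocytes, endothelium, pericytes and hepatocytes (PTPRC, CD14, PECAM1, VWF, PDGFRB and ALB) did not pass 0.652 CPM in any library. COL1A1, a fibroblast collagen, was read at 21.2 to 27.3 CPM.

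Of the 113 genes, 105 had enough counts to be tested, 92 nuclear and all 13 mitochondrial. The other 8 were nuclear and had few counts or none. NDUFC2-KCTD14, COX4I2, COX6A2 and COX7B2 had no count in any library, and COX7A1, COX8C, ATP5MF-PTCD1 and ATP5MGL had at most 4. NDUFC2-KCTD14 shares 52.2% of its exonic length with NDUFC2 and 47.8% with KCTD14, on the same strand. ATP5MF-PTCD1 shares 83.3% with PTCD1, so the counts of these joined genes do not show their levels. Levels are compared between genes as CPM per kilobase of transcript (the median length of the gene's protein-coding transcripts). On that scale the 13 mitochondrial mRNAs had a median of 2127 with miR-34a and 2150 in the control, against 103 and 112 for the nuclear genes. Even MT-ND1, the lowest mitochondrial mRNA, averaged 1463 CPM per kilobase with miR-34a and 1384 in the control, above ATP5F1B, the catalytic beta subunit of ATP synthase and the highest nuclear gene, at 1275 with miR-34a and 1341 in the control. The order of this pair is narrow: MT-ND1 was below ATP5F1B in miR-34a replicate 1 (1248 against 1367 CPM per kilobase) and in control replicate 2 (1073 against 1420). The heaviest nuclear mRNAs by complex were NDUFS5 for complex I, SDHC for complex II, UQCRC2 for complex III, COX7C for complex IV and ATP5F1B for complex V, with 340, 208, 438, 417 and 1341 CPM per kilobase in the control. CYCS, the mobile carrier cytochrome c, had 384 CPM per kilobase with miR-34a and 391 in the control.

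**Figure D1:**
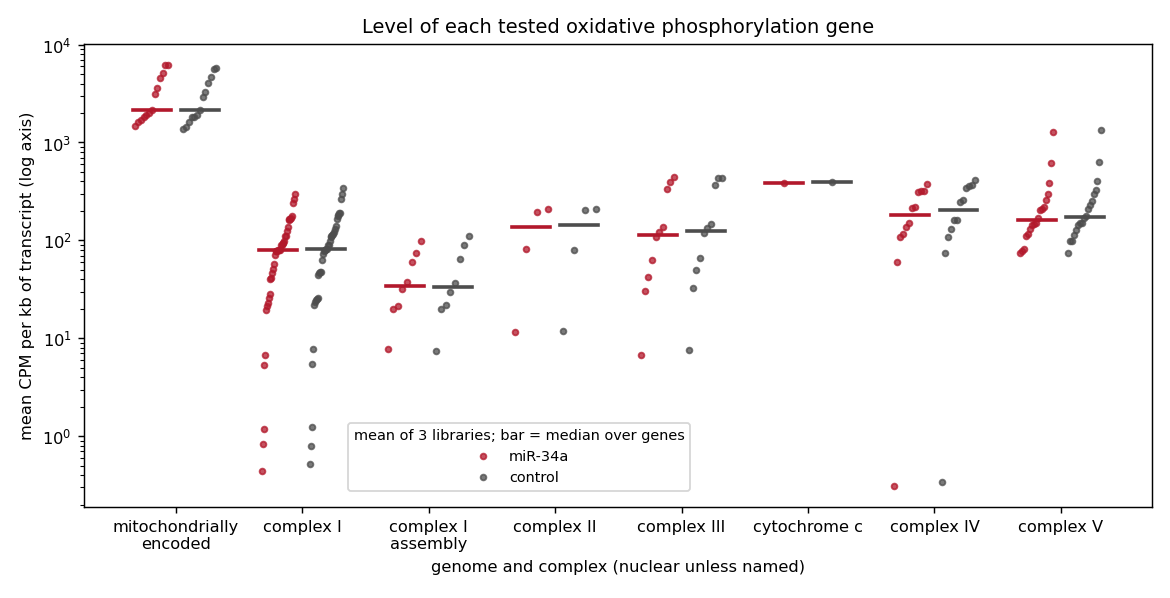
Mean level of each tested gene in CPM per kilobase of transcript (log axis), in miR-34a (red) and control libraries (grey), n = 3 each, by genome and complex; horizontal bars are medians over genes. By these means the mitochondrial mRNAs sit above every nuclear gene, and the lowest nuclear points, NDUFA4L2, NDUFV2, NDUFA7 and COX6B2, rest on few counts. Whether overlap with other genes or pseudogenes lowered the counts of NDUFV2 and NDUFA7 was not tested.

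The oxidative phosphorylation genes that passed the test were nuclear and lower with miR-34a. Of the 92 nuclear genes tested, 7 fell and 0 rose (edgeR quasi-likelihood test, Benjamini-Hochberg adjusted p under 0.05 over all 17427 genes). The 7 are NDUFB7, NDUFA1, COX6A1, COX6B1, COX7A2, ATP5F1D and ATP5ME. They make up 7.61% of the nuclear genes, close to the 6.7% of all tested genes that fell; 5.38% of all tested genes rose. By DESeq2, 6 nuclear genes fell and 1 rose, and at an unadjusted p under 0.05 the edgeR counts were 22 lower (23.9%) and 1 higher, where 13.1% of all tested genes were lower and 11.3% higher. In bulk RNA, fewer cells of a kind and less RNA per cell cannot be told apart.

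The size and the sign of the nuclear changes are a description and carry no test of the set. The median log2 fold change (miR-34a over control) was -0.11 over the 92 nuclear genes and -0.004 over all tested genes. The change was below 0 for 79 of the 92 (85.9%), against 50.7% of all tested genes. In 12 nuclear genes every miR-34a library lay below every control library (13.04%, where 14.2% of all tested genes did so), and in 1, NDUFS1, every miR-34a library lay above (13.1% of all tested genes did so). Small negative values in many genes therefore stood beside shares of fallen or downward separated genes that were near those of the whole transcriptome. Upward, the shares were below those of all tested genes: 0 nuclear genes rose (5.38% of all tested genes did) and 1 was separated (13.1%). At an unadjusted p under 0.05 in edgeR, the share of lower nuclear genes, 23.9%, was above the 13.1% of all tested genes.

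**Figure D2:**
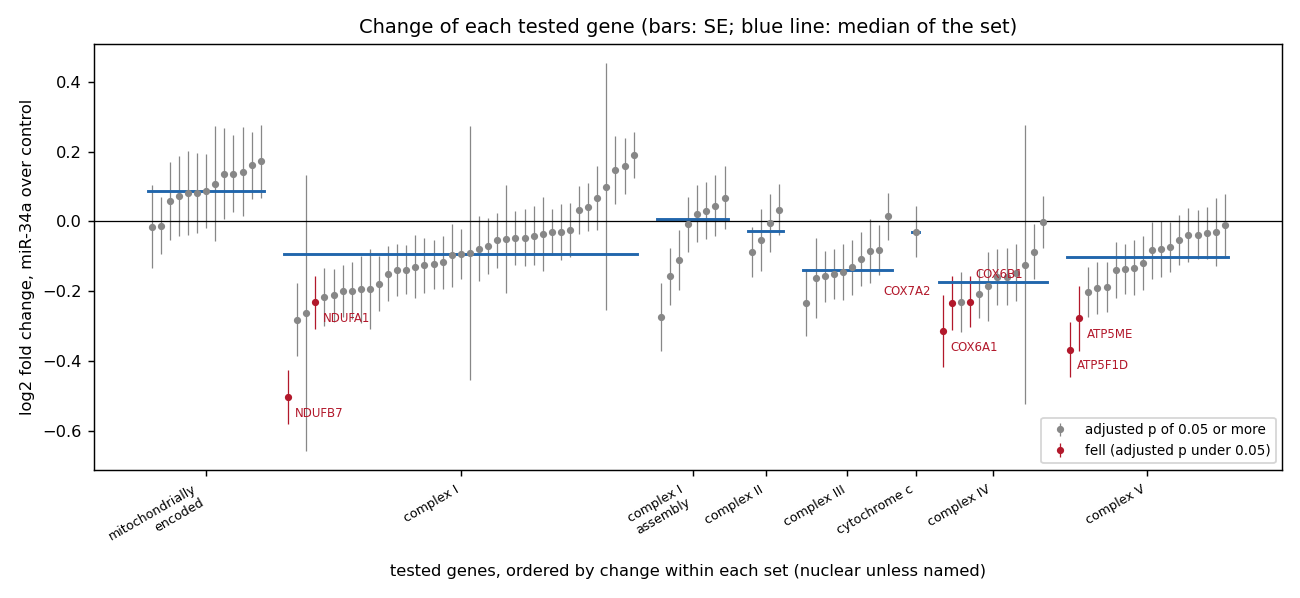
Log2 fold change (miR-34a over control) of each of the 105 tested genes with its SE, ordered within each set; blue lines are medians. Called genes (red) are the 7 nuclear genes named in the text; all nuclear genes of complexes IV and V lie below 0, and 11 of the 13 mitochondrial genes lie above it.

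The 6 libraries differed in the nuclear genes as a block. miR-34a replicate 3 held the lowest value for 55 of the 92 genes, while control replicate 3 held the highest for 40 and control replicate 2 for 30. Summed over the 100 nuclear genes, the level was 11016, 10599 and 9924 CPM in miR-34a replicates 1 to 3, against 10387, 11620 and 11694 CPM in control replicates 1 to 3. The groups overlap, since control replicate 1 lies below miR-34a replicates 1 and 2. The means were 10513 ± 551 CPM with miR-34a and 11234 ± 734 CPM in the control (SD, n = 3 each), a difference of -6.41%. The count of nuclear genes that fell followed the choice of libraries: it was 21 without control replicate 1, 2 without control replicate 2, 2 without control replicate 3, 3 without miR-34a replicate 2 and 2 without miR-34a replicate 3, and 5 without miR-34a replicate 1. Scaling by library size alone left 2 fallen genes, and taking mitochondrial counts out of the library size left 4.

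Transcript length also moved with the sign. Most of these mRNAs are short, and 71 of the 92 nuclear genes belong to the shortest of 4 equal length classes of tested protein-coding genes, by median transcript length. Other genes of that class had a median log2 fold change of -0.03, with 57.3% below 0, and those of the longest class 0.04, with 43.4% below 0. The 71 short nuclear oxidative phosphorylation genes had a median of -0.12, with 90.1% below 0. The part of library differences and of transcript length in the nuclear values was not tested.

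NDUFB7 changed most among the 105 tested oxidative phosphorylation genes, and it held its call under every alternative tried. This accessory subunit sits in the membrane arm of complex I on the intermembrane space side. It was read at 43.5, 44.4 and 38.4 CPM in miR-34a replicates 1 to 3, against 57.4, 64.1 and 57.1 CPM in control replicates 1 to 3. All miR-34a libraries lay well below all control libraries, with a gap wider than the spread within either group. The log2 fold change was -0.50 ± 0.08 (SE, edgeR quasi-likelihood test, adjusted p = 5.87e-05), a level 0.706 times that of the control. The gene lies at chr19:14566078-14572062 on the minus strand (GRCh38), and its 3′ UTR of 55 nt has no match to the miR-34a seed.

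ATP5F1D, the delta subunit in the central stalk of the F1 motor, was the other gene that held its call under every alternative. It had 52.5, 51.4 and 51.6 CPM with miR-34a, against 58.1, 73.0 and 69.3 CPM in the control. The miR-34a libraries were close to each other and the control libraries spread more widely, with no overlap. The log2 fold change was -0.37 ± 0.08 (SE, edgeR, adjusted p = 0.00231). ATP5F1D lies at chr19:1241746-1244826 on the plus strand. Its 3′ UTR holds a 6-base seed match, the weakest class searched.

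The other 5 fallen genes had adjusted p-values just under the threshold. NDUFA1, an accessory subunit needed early in assembly of the complex I membrane arm, had 124, 131 and 116 CPM with miR-34a, against 128, 153 and 153 CPM in the control. Its ranges overlapped because control replicate 1 was below miR-34a replicate 2, and its log2 fold change was -0.23 ± 0.08 (edgeR, adjusted p = 0.0479). The call ended under 9 of 14 alternatives, among them the leaving out of any single library but control replicate 1. NDUFA1 shares 44.5% of its exonic length with RNF113A on the opposite strand, a gene at 24.3 CPM, and reads of such pairs cannot be told apart in libraries that do not mark strand.

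Subunit isoforms of complex IV held 3 of the 7. COX6B1, which caps the intermembrane space face of the enzyme, had 107, 97.9 and 98.1 CPM with miR-34a, against 109, 128 and 118 CPM in the control, and a log2 fold change of -0.23 ± 0.07 (edgeR, adjusted p = 0.0394). Every miR-34a library was below every control library, by a narrow gap. COX7A2, the isoform of subunit 7A used outside heart and muscle, had 96.9, 100 and 82.8 CPM with miR-34a, against 104, 107 and 117 CPM in the control. Its groups did not overlap, and its log2 fold change was -0.23 ± 0.08 (edgeR, adjusted p = 0.0487). COX6A1, the isoform of subunit 6A used outside heart and muscle, had 42.1, 30.2 and 30.1 CPM with miR-34a, against 37.9, 45.3 and 43.6 CPM in the control. Replicate 1 of each group crossed over, and the log2 fold change was -0.31 ± 0.10 (edgeR, adjusted p = 0.0459). These calls ended under 6, 8 and 7 of 14 alternatives for COX6B1, COX7A2 and COX6A1. Without miR-34a replicate 3, for example, none of them was called. Adding the reads of the pseudogene COX6A1P2, 9.36% of the gene's own, also ended the call of COX6A1.

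ATP5ME, subunit e of the membrane part of ATP synthase, which helps the enzyme form dimers, had 29.3, 31.0 and 28.8 CPM with miR-34a, against 30.9, 41.7 and 35.1 CPM in the control. miR-34a replicate 2 and control replicate 1 were nearly level, so the groups overlapped. The log2 fold change was -0.28 ± 0.09 (edgeR, adjusted p = 0.0493), and the call ended under 11 of 14 alternatives. ATP5ME shares 61.6% of its exonic length with MYL5 on the opposite strand, at 10.04 CPM. Reads of the shared stretch may have been credited to either gene or left uncounted, since the rule is not given in the sources used here.

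**Figure D3:**
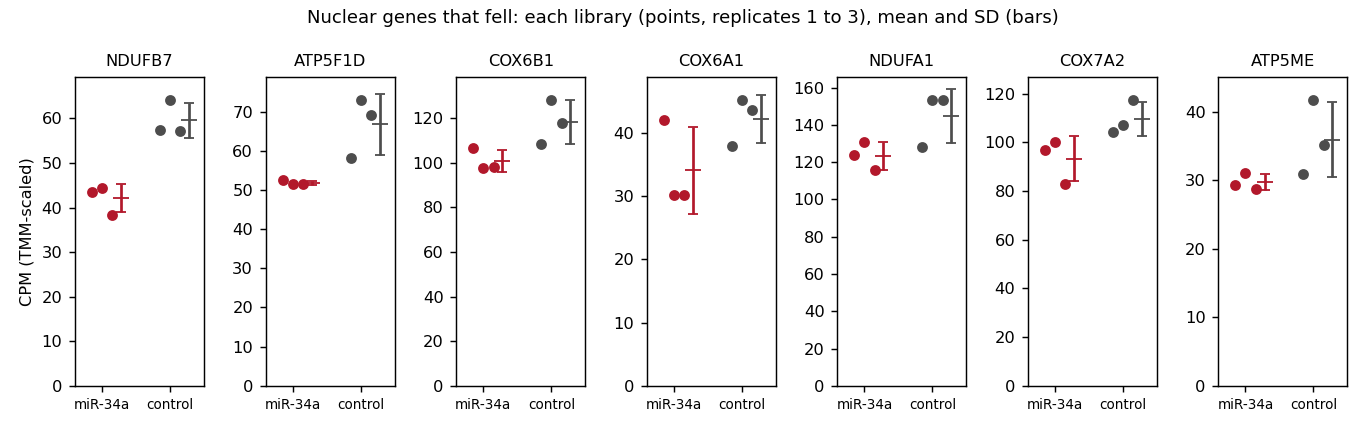
CPM of the 7 fallen genes in each library (points, replicates 1 to 3 from left to right) with the mean and SD of each group, miR-34a in red and control in grey; axes start at 0. NDUFB7 and ATP5F1D show the widest gaps, while in COX6A1, NDUFA1 and ATP5ME a library of each group overlaps the other group.

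Seed matches to miR-34a were found in the 3′ UTR of few of these genes, and most genes with such a match did not pass the test. The duplex supplies the mature strand below, from RefSeq (GRCh38.p14), with its seed, bases 2 to 8, in capitals. The site windows are shown because they hold seed matches in these mRNAs, and whether the miRNA pairs there was not tested. They come from the GENCODE 29 transcript with the longest coding sequence. The bases that match the seed are in capitals (CACTGCCA for an 8mer, CACTGCC for a 7mer-m8 and ACTGCCA for a 7mer-A1).
hsa-miR-34a-5p: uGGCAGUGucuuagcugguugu
NDUFA9 8mer, chr12:4688581-4688610, plus strand: acattacagtatgagaagCACTGCCAtaca
NDUFC2 8mer, chr11:78069709-78069738, minus strand: gactacccaaatctggccCACTGCCAataa
COX7A2 7mer-A1, chr6:75237806-75237835, minus strand: tatttattgacttgtagtaACTGCCAccaa
CYCS 7mer-m8, chr7:25123682-25123711, minus strand: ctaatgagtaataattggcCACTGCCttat

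A 7mer or 8mer match lay in the 3′ UTR of 8 nuclear genes: ATP5F1A, COX7A2, CYCS, NDUFA9, NDUFAF5, NDUFAF6, NDUFC2 and SDHC. Of these, COX7A2 fell and the other 7 did not pass the test, beside 19.6% fallen among all 2714 tested genes with such a match. The median log2 fold change of the 8 was -0.03, and that of the 80 tested nuclear genes with a classed 3′ UTR and no such match was -0.11. The 6 other fallen genes were all among those 80.

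NDUFC2, a membrane arm subunit of complex I with an 8mer and a 7mer-A1 match, had 26.03, 22.7 and 20.6 CPM with miR-34a, against 23.2, 27.7 and 28.1 CPM in the control, and a log2 fold change of -0.19 ± 0.10 (edgeR, adjusted p = 0.22). NDUFA9, a subunit at the junction of the 2 arms of complex I that also has 2 such matches, had 15.1, 14.1 and 11.8 CPM with miR-34a, against 13.97, 13.92 and 13.97 CPM in the control, and a log2 fold change of -0.04 ± 0.11. CYCS also holds 2 such matches, the nearer 9 bases into the 3′ UTR. It had 377, 332 and 310 CPM with miR-34a, against 335, 348 and 358 CPM in the control (log2 fold change -0.03 ± 0.07). In NDUFA9 and CYCS the miR-34a libraries lay on both sides of the controls, and in NDUFC2 the groups overlapped. SDHC holds 5 matches in an annotated 3′ UTR of 12907 nt and had a log2 fold change of -0.0037 ± 0.08. The 3 others, ATP5F1A, NDUFAF5 and NDUFAF6, had log2 fold changes of -0.04 ± 0.07, 0.05 ± 0.09 and -0.0081 ± 0.08, and their groups overlapped. Whether HEK293T cells use the longest annotated 3′ UTR of these genes was not tested.

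Promoters of nuclear respiratory genes are known to carry sites for NRF1, GABP (an ETS factor) and YY1. Their motifs were searched on both strands of the 300 bases around each start (250 before and 50 after, RefSeq, GRCh38.p14), for which 80 of the 100 nuclear genes had an entry. The NRF1 motif TGCGCANGC was present in 21.2% of these 80 and in 4.63% of all 27305 promoters, the GABP motif CCGGAAG in 26.2% and 10.7%, and the YY1 motif AAGATGGC in 13.8% and 3.03%. No promoter of the 80 had overlapping matches of different motifs. The median log2 fold change of genes with and without the motif was -0.09 and -0.11 for NRF1, -0.13 and -0.10 for GABP, and -0.05 and -0.12 for YY1. Of the fallen genes, NDUFA1, NDUFB7, COX6A1, COX6B1 and ATP5ME had the GABP motif, COX6A1 and ATP5ME also that of NRF1, and COX7A2 none, while ATP5F1D was not searched. Both promoters below are shown as those of the fallen gene that changed most and of a fallen gene with both motifs, with matches in capitals.
NDUFB7, chr19:14572017-14572316, minus strand: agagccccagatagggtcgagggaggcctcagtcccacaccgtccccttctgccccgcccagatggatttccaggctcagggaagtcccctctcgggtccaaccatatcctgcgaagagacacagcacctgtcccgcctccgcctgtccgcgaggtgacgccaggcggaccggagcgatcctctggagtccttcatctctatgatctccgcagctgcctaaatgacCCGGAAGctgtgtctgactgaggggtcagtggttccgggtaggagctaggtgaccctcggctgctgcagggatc
COX6A1, chr12:120437863-120438162, plus strand: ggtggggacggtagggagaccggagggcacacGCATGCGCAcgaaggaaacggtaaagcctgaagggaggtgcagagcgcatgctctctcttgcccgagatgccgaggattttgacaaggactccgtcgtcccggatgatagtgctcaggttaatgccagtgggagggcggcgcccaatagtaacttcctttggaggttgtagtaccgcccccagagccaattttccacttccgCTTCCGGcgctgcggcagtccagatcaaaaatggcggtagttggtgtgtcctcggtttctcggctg

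Complex I, the NADH dehydrogenase, had 2 fallen genes among 39 tested nuclear subunits (5.13%, where 6.7% of all tested genes fell). The median log2 fold change of the 39 was -0.09. The 11 subunits of the N module, the part that takes up NADH, had 0 called genes in edgeR (1 lower and 1 higher at an unadjusted p under 0.05; by DESeq2, NDUFS1 rose) and a median of -0.07. NDUFS1, the largest subunit and an iron-sulfur protein of that module, had 218, 216 and 215 CPM with miR-34a, against 194, 182 and 192 CPM in the control. All miR-34a libraries were above all control libraries, and the log2 fold change of 0.19 ± 0.07 narrowly missed the threshold in edgeR (adjusted p = 0.0596). It passed under scaling by library size, a filter at 1 CPM, DESeq2 and without control replicate 1.

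Groups were separated, in either direction, in 6 of the 39 tested nuclear genes of complex I (15.4%). Among all tested genes the share was 27.3%. NDUFB4, NDUFB8, NDUFA3 and NDUFS6 had every miR-34a library below every control library, with log2 fold changes of -0.20 ± 0.08, -0.28 ± 0.10, -0.20 ± 0.08 and -0.21 ± 0.08, and did not pass the adjusted threshold. NDUFS5, the highest complex I mRNA per kilobase, had 162, 179 and 150 CPM with miR-34a, against 165, 193 and 198 CPM in the control (log2 fold change -0.18 ± 0.08, edgeR, adjusted p = 0.155). NDUFV2 and NDUFA7 had only 18 to 29 counts per library, and the pseudogene NDUFV2P1 held 94.8% as many reads as NDUFV2 itself, so neither gene bears on a difference of this size. Their log2 fold changes had SEs of 0.35 and 0.36. NDUFV2 shares 28.4% of its exonic length with AP005263.1 on the same strand, and NDUFA7 32.3% with AC010323.1. Whether such overlap or pseudogenes lowered their counts was not tested.

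The 8 NDUFAF genes taken in by the symbol rule are assembly factors and no part of the finished complex. They had 0 fallen and 0 risen genes in edgeR and in DESeq2 (1 lower and 0 higher at an unadjusted p under 0.05) and a median log2 fold change of 0.0070. NDUFAF8 had the largest difference, with 37.4, 37.97 and 33.3 CPM with miR-34a, against 37.2, 41.7 and 52.1 CPM in the control (log2 fold change -0.27 ± 0.10, edgeR, adjusted p = 0.0661). NDUFAF3, the most abundant per kilobase, had 76.5, 79.0 and 78.7 CPM with miR-34a, against 74.5, 99.5 and 86.9 CPM in the control. In both, control replicate 1 lay within or next to the miR-34a range while control replicates 2 and 3 lay above it.

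Complex II, succinate dehydrogenase, joins the chain to the tricarboxylic acid cycle and has no mitochondrially encoded subunit. None of its 4 genes was called by edgeR or DESeq2, and none had an unadjusted p under 0.05. SDHB, its iron-sulfur subunit, had 148, 134 and 128 CPM with miR-34a, against 139, 146 and 149 CPM in the control, and a log2 fold change of -0.09 ± 0.07 (95% interval -0.23 to 0.06). SDHA, the flavoprotein, and SDHD, a membrane anchor, had log2 fold changes of -0.05 ± 0.09 and 0.03 ± 0.07. SDHA has close copies, and SDHAP4 alone held 71.8% as many reads as SDHA. With the copies added, the log2 fold change of SDHA was 0.02. The interval of each of the 4 genes lay between -0.24 and 0.18.

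Complex III and cytochrome c had no called gene in edgeR or DESeq2. Of the 10 nuclear genes of complex III, 9 had a negative log2 fold change (90%, against 50.7% of all tested genes), with a median of -0.14. At an unadjusted p under 0.05 in edgeR, 3 of the 10 were lower (30%, against 13.1% of all tested genes). CYCS had no unadjusted p under 0.05. UQCR11, a small subunit, had 36.4, 28.9 and 29.9 CPM with miR-34a, against 32.5, 41.8 and 37.1 CPM in the control (log2 fold change -0.23 ± 0.10, edgeR, adjusted p = 0.126). CYC1, cytochrome c1, had 141, 124 and 135 CPM with miR-34a, against 141, 160 and 142 CPM in the control, a separation of the groups by less than 1 CPM. UQCRC2, a core subunit, had 259, 266 and 253 CPM with miR-34a, against 245, 252 and 273 CPM in the control, and its log2 fold change of 0.01 ± 0.07 was the sole value above 0 among its nuclear genes.

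Complex IV, cytochrome c oxidase, had the lowest median of the complexes, -0.17. All 12 tested nuclear genes were below 0, where 50.7% of all tested genes were. Of the 12, 3 fell (25%), where 6.7% of all tested genes did. These 3 calls had adjusted p-values just under the threshold and ended under 6, 7 and 8 of 14 alternatives. Its summed nuclear level was 1425 ± 78.2 CPM with miR-34a and 1602 ± 138 CPM in the control (SD, n = 3 each), a difference of -11.1%, with overlap between the groups because control replicate 1 stood at 1443 CPM and miR-34a replicates 1 and 2 at 1481 and 1458 CPM. COX4I1, the common isoform of the first nuclear subunit to join the core, had 241, 237 and 215 CPM with miR-34a, against 252, 274 and 273 CPM in the control, a separation of the groups that missed the threshold (log2 fold change -0.21 ± 0.07, edgeR, adjusted p = 0.0526). DESeq2 called it, as did edgeR without control replicate 1. COX7C, the most abundant per kilobase, had 279, 241 and 227 CPM with miR-34a, against 250, 303 and 280 CPM in the control (log2 fold change -0.16 ± 0.08).

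Isoform pairs of complex IV showed which versions this line uses. COX4I2, an isoform of lung and of low oxygen, and COX6A2, that of heart and muscle, had no counts. COX7A1, the muscle isoform of subunit 7A, had at most 4 counts in a library and the testis isoform COX6B2 9 to 21. COX7A2L, a paralogue that links complexes III and IV in supercomplexes, had 93.7, 94.8 and 81.1 CPM with miR-34a, against 88.4, 85.5 and 95.6 CPM in the control. Its log2 fold change was -0.0010 ± 0.08, with a 95% interval of -0.16 to 0.15, whereas COX7A2 had -0.23 with an interval of -0.39 to -0.07. The difference between these paralogues was not tested. NDUFA4, counted here with complex I by its symbol but known as a subunit of complex IV, had 127, 128 and 115 CPM with miR-34a, against 122, 146 and 138 CPM in the control (log2 fold change -0.14 ± 0.08). Its paralogue NDUFA4L2, an isoform of low oxygen, had 11 to 25 counts per library.

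Complex V, the ATP synthase, had 2 fallen genes among 18 tested (11.1%, where 6.7% of all tested genes fell). All 18 had a log2 fold change below 0 (50.7% of all tested genes did), with a median of -0.10. The 5 genes of the F1 head and central stalk differed in size of change. The catalytic head subunit ATP5F1B had 1171, 1046 and 1059 CPM with miR-34a, against 1093, 1215 and 1135 CPM in the control (log2 fold change -0.07 ± 0.07), and ATP5F1A, the other head subunit, was given above at -0.04. ATP5F1D of the stalk, at -0.37, was the only one of the 5 with an unadjusted p under 0.05. The proton-carrying c ring is encoded by ATP5MC1, ATP5MC2 and ATP5MC3, which make the same mature protein. Their log2 fold changes were -0.19 ± 0.07, -0.12 ± 0.08 and -0.08 ± 0.08, none called, with adjusted p-values of 0.1, 0.375 and 0.612 in edgeR. ATP5IF1, which blocks ATP hydrolysis by the enzyme, and ATP5MF, subunit f of the membrane part, had separated groups. Their log2 fold changes were -0.20 ± 0.07 and -0.19 ± 0.07, with adjusted p-values of 0.0712 and 0.0998 in edgeR. Groups were separated in 3 of the 18 genes of complex V (16.7%), against 27.3% of all tested genes.

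Mitochondrially encoded mRNAs gave no called gene: 0 of 13 fell and 0 rose in edgeR or in DESeq2, and none had an unadjusted p under 0.05 in edgeR. Their median log2 fold change was 0.09, and 11 of 13 were above 0. The values ran from -0.01 for MT-ND4L, a small membrane subunit of complex I, to 0.17 for MT-CO1, the catalytic subunit of complex IV. The 95% intervals of the 13 genes ran between -0.26 and 0.45. The spread between replicates was larger than for nuclear genes: the median coefficient of variation was 18.6% with miR-34a and 19.2% in the control for the mitochondrial mRNAs, against 7.11% and 8.81% for the nuclear ones. The median SE of the log2 fold change was 0.11 for the mitochondrial genes (0.08 to 0.17) and 0.08 for the nuclear ones. Whether a difference of the size seen in the nuclear set could be detected in mitochondrial genes was not tested.

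The mitochondrial mRNAs moved together from library to library, with overlap between the groups. Their summed level was 31432, 43240 and 33462 CPM in miR-34a replicates 1 to 3, against 38384, 25813 and 35553 CPM in control replicates 1 to 3. Control replicate 2 was the lowest library for all 13 genes and miR-34a replicate 2 the highest for 10 of them. The group means were 36045 ± 6314 CPM with miR-34a and 33250 ± 6594 CPM in the control (SD, n = 3 each). The difference of 8.41% lies within the SD of either group. The median log2 fold change of the 13 genes was -0.07 without control replicate 2 and -0.06 without miR-34a replicate 2, and 0.21 without control replicate 1. Leaving out control replicate 1 also led to calls for MT-ATP8, MT-CO1 and MT-ND6 as risen.

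**Figure D4:**
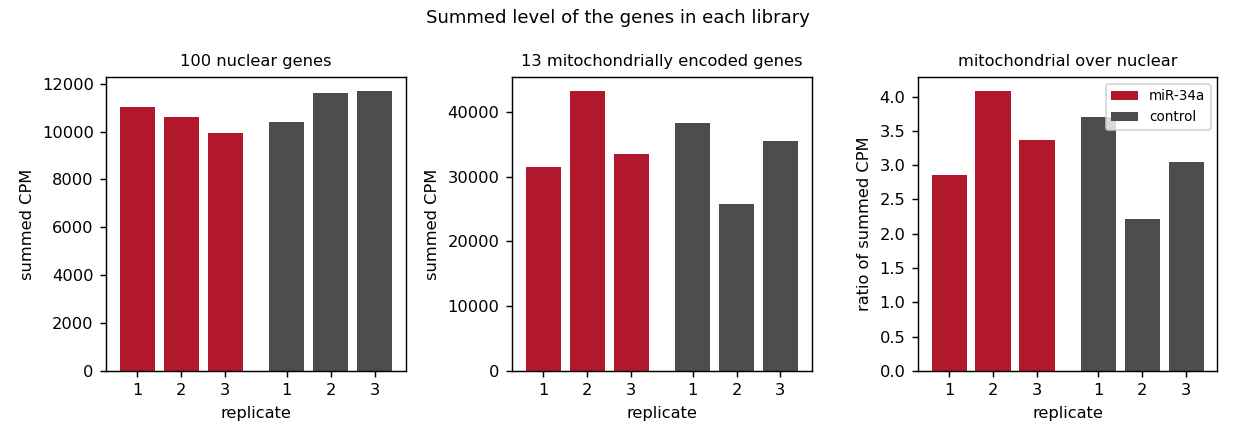
Summed CPM of the nuclear genes, of the mitochondrially encoded genes, and their ratio, in each miR-34a (red) and control (grey) library; bars start at 0. Nuclear sums run from 9924 CPM in miR-34a replicate 3 to 11694 CPM in control replicate 3. Control replicate 2 has the lowest mitochondrial sum and the lowest ratio, 2.22, and miR-34a replicate 2 the highest, 4.08.

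MT-CO1 had 6344, 8132 and 6726 CPM in the miR-34a libraries, against 7306, 4948 and 6563 CPM in the control libraries. Its log2 fold change was 0.17 ± 0.10 (edgeR, adjusted p = 0.337), and the groups overlapped. MT-CO2, which takes electrons from cytochrome c, and MT-CO3, the third core subunit, had log2 fold changes of 0.14 ± 0.13 and 0.08 ± 0.12. For complex V, MT-ATP6, which forms the proton path, had 3130, 4344 and 3039 CPM with miR-34a, against 3689, 2320 and 3513 CPM in the control, and MT-ATP8 had 569, 787 and 589 CPM with miR-34a, against 826, 355 and 622 CPM in the control. These genes overlap on the same transcript, MT-ATP8 by 22.2% of its length. Their log2 fold changes were 0.14 ± 0.13 and 0.11 ± 0.17. MT-CYB, the cytochrome b of complex III, had 0.07 ± 0.11.

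The 7 mitochondrial genes of complex I make up its membrane core. MT-ND6, the sole protein gene on the light strand, had 769, 954 and 798 CPM with miR-34a, against 870, 613 and 772 CPM in the control, and a log2 fold change of 0.16 ± 0.10 (edgeR, adjusted p = 0.327). It was the lowest adjusted p among the 13. The libraries do not mark strand, so any reads from the opposite strand of this stretch cannot be told apart from those of MT-ND6. MT-ND4 and MT-ND5, homologues of antiporters, had 0.14 ± 0.11 and 0.09 ± 0.11, MT-ND1 and MT-ND2 had 0.08 ± 0.12 and 0.06 ± 0.11, and MT-ND3 and MT-ND4L had -0.01 ± 0.08 and -0.01 ± 0.12. These values stood close together, and none exceeded the spread of its replicates.

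Shares of single genes in the mitochondrial mRNAs overlapped between the groups for 12 of the 13. MT-CO1 took the largest share of the 13, 19.7 ± 0.772% with miR-34a and 18.9 ± 0.376% in the control (SD, n = 3 each). MT-ND2 was the only gene whose share did not overlap between groups, at 5.46 ± 0.148% with miR-34a and 5.70 ± 0.0841% in the control. MT-ATP8 had the widest relative spread in the control, with 1.81, 1.82 and 1.76% in the miR-34a libraries, against 2.15, 1.38 and 1.75% in the control libraries. The ribosomal RNAs of mitochondria, MT-RNR1 and MT-RNR2, were not called by edgeR or DESeq2, had no unadjusted p under 0.05, and had log2 fold changes of 0.18 ± 0.11 and 0.16 ± 0.11, with the same high value in miR-34a replicate 2 and low value in control replicate 2. Nuclear copies of mitochondrial genes took some of the reads: MTATP6P1 held 12.5% as many as MT-ATP6 and MTND2P28 3.61% as many as MT-ND2. None of the 6 tested copies was called by edgeR or DESeq2 (1 higher at an unadjusted p under 0.05), and MTATP6P1 and MTND2P28 had log2 fold changes of 0.05 ± 0.17 and 0.09 ± 0.15.

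**Figure D5:**
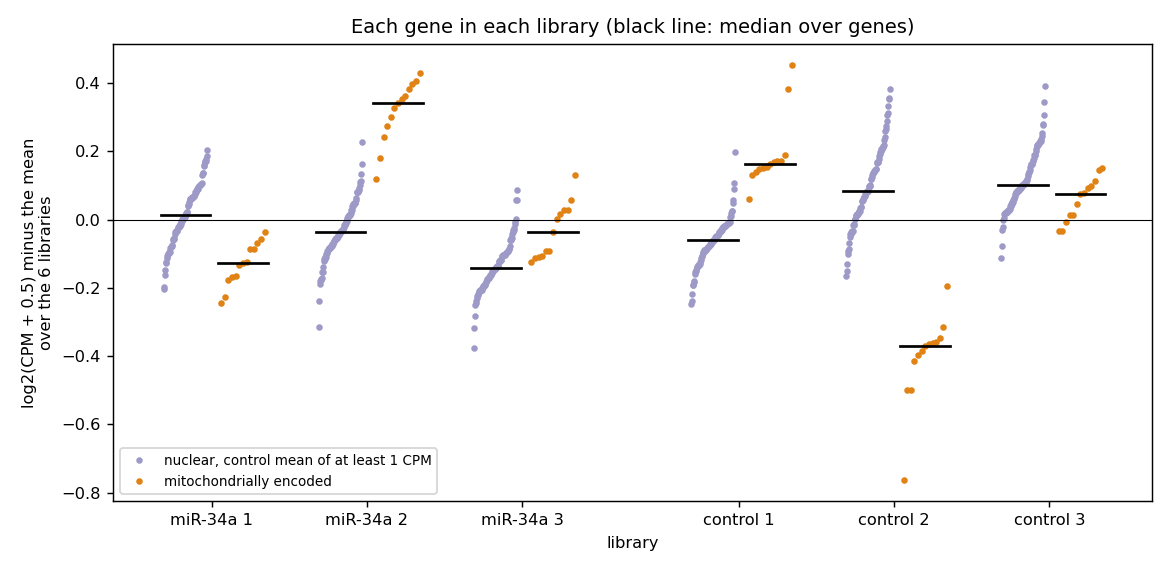
Level of each gene in each library as log2(CPM + 0.5) minus its mean over the 6 libraries, for nuclear genes with at least 1 CPM in the control (violet) and mitochondrially encoded genes (orange); black lines are medians. The orange points lie highest in miR-34a replicate 2 and lowest in control replicate 2, and the violet points lie lowest in miR-34a replicate 3.

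Set side by side, nuclear and mitochondrial genes had medians of opposite sign, -0.11 and 0.09. The ratio of the mitochondrial to the nuclear sum was 2.85, 4.08 and 3.37 in the miR-34a libraries, against 3.70, 2.22 and 3.04 in the control libraries, and the groups overlapped. By complex, nuclear and mitochondrial medians were -0.09 and 0.08 for complex I, -0.14 and 0.07 for complex III, -0.17 and 0.14 for complex IV, and -0.10 and 0.13 for complex V. The nuclear median kept its sign with each library left out (-0.16 to -0.06) and the mitochondrial median did not (-0.07 to 0.21). A test of the contrast between both sets was not made.

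Genes around the complexes were read from lists of assembly factors, mitochondrial gene expression, transcription factors and metabolism. Of 45 assembly factors outside the symbol rule, 4 fell and 2 rose, near the shares of all tested genes (6.7% and 5.38%). By DESeq2, 3 fell and 2 rose, and at an unadjusted p under 0.05 in edgeR 9 of the 45 were lower and 3 higher. At that unadjusted p, 13.1% of all tested genes were lower and 11.3% higher. DMAC2, an assembly factor of the distal membrane arm of complex I, had 36.9, 34.2 and 32.8 CPM with miR-34a, against 50.04, 51.6 and 54.4 CPM in the control (log2 fold change -0.59 ± 0.08, edgeR, adjusted p = 4.83e-06). TTC19, a maturation factor of complex III whose 3′ UTR has an 8mer match, had 80.6, 75.6 and 69.0 CPM with miR-34a, against 97.9, 97.0 and 110 CPM in the control (-0.44 ± 0.08, adjusted p = 0.000184). The groups of both genes were far apart. ATPAF1, which assembles the F1 head, and DMAC1 fell by 0.22 and 0.28 on the log2 scale, with adjusted p-values of 0.0343 and 0.0435. NUBPL, which delivers iron-sulfur clusters to complex I, had 44.4, 44.4 and 40.3 CPM with miR-34a, against 33.4, 31.9 and 35.4 CPM in the control, and rose (0.36 ± 0.08, adjusted p = 0.00263). SDHAF4, a chaperone of SDHA, also rose (0.56 ± 0.13, adjusted p = 0.00496), and in both genes every miR-34a library was above every control library. The median of the 45 genes was -0.02.

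Machinery that copies and transcribes mitochondrial DNA gave no call in edgeR among 15 genes (1 lower and 0 higher at an unadjusted p under 0.05, and 0 by DESeq2), with a median of -0.01. TFAM, which packs and transcribes that DNA, had 232, 214 and 211 CPM with miR-34a, against 230, 201 and 214 CPM in the control (log2 fold change 0.03 ± 0.07), with SSBP1, the single-strand binding protein, at -0.06 ± 0.07. Of 17 genes of mitochondrial RNA processing, HSD17B10, a subunit of mitochondrial RNase P, fell, with 93.4, 84.0 and 76.8 CPM with miR-34a, against 105, 127 and 115 CPM in the control (-0.45 ± 0.08, edgeR, adjusted p = 0.000313), and 0 rose. Among 15 transcription factors and coactivators known to act on respiratory genes, CREB1 fell (-0.24 ± 0.08, edgeR, adjusted p = 0.0387). PPARA, a nuclear receptor of fatty acid oxidation, rose (0.49 ± 0.10, adjusted p = 0.000736). DESeq2 also gave 1 fallen and 1 risen gene, and 1 was lower and 1 higher at an unadjusted p under 0.05 in edgeR. For RNA processing, DESeq2 gave 1 fallen and 0 risen, and 2 were lower and 2 higher at that unadjusted p. The counts of both lists stood near the shares of all tested genes, of which 6.7% fell and 5.38% rose.

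Genes of neighbouring mitochondrial metabolism fell at a share near that of all tested genes. Of 19 genes of the tricarboxylic acid cycle and pyruvate dehydrogenase, MDH2, the mitochondrial malate dehydrogenase, fell, with 354, 342 and 321 CPM with miR-34a, against 370, 407 and 405 CPM in the control (-0.22 ± 0.07, edgeR, adjusted p = 0.0399). Of 13 carriers and electron donors to ubiquinone, SLC25A6, an ADP/ATP carrier of the inner membrane, fell, with 425, 397 and 400 CPM with miR-34a, against 438, 508 and 482 CPM in the control (-0.22 ± 0.07, adjusted p = 0.0375). No gene of these lists rose in edgeR or DESeq2 (1 in each list was higher at an unadjusted p under 0.05). The medians of both lists, -0.0067 and 0.02, stood near that of all tested genes.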

How the data were processed

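RNA of 6 HEK293T cultures (3 with miR-34a, 3 with the negative control) was read with a library kit that does not mark strand, per the labels' protocols. The authors deposited raw counts per gene; per the submitters' processing notes, STAR 2.7.11a, featureCounts, Subread 2.0.3, edgeR 3.42.4 and GRCh38 were used, while no annotation release and no rule for multi-mapped reads is given in the sources used here. From these counts, edgeR 4.0.16 in R 4.3.3 gave TMM-scaled CPM and the quasi-likelihood test of miR-34a over control across 17427 of 63140 genes (filterByExpr, minimum count 10, minimum total 15), with Benjamini-Hochberg adjustment. SE is the log2 fold change divided by the square root of F, and intervals are 95%. Transcript lengths, 3′ UTRs and overlaps come from GENCODE 29 (GRCh38), and UTRs under 50 nt were not classed for sites. The test was checked on simulated counts.

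Genes and lists were chosen with earlier results of these data known. Named are the called genes, the 13 mitochondrial genes, the most abundant and the most changed gene of each complex, genes with a 7mer or 8mer site, paralogue sets and, from each list, up to 4 called genes or the 2 most expressed. ATP5IF1, ATP5MF, ATPAF1, CYC1, DMAC1, NDUFA3, NDUFB4, NDUFB8, NDUFS1, NDUFS6, SDHA and SDHD were added after their values were seen. Alternatives were DESeq2 (1.42.0) and its size factors, library size alone, mitochondrial counts left out of the library size, no filter, 1 CPM or more in 3 libraries as the filter, a replicate block, named pseudogenes added to their genes, and each library left out in turn. A result on a subset of complex I genes is not reported here.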

Additional observations from a re-analysis of the deposited data

How the results depend on the processing

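With 3 libraries a group and 1 cell line, the precision is limited most for mitochondrial genes, by their spread, and for NDUFV2, NDUFA7, NDUFA4L2 and COX6B2, by counts. The number of fallen nuclear genes, 7, was 4 with DESeq2 size factors, 2 with library size alone and 4 with mitochondrial counts left out of the library size, and it was 9 with no filter, which added COX5B and NDUFAF8. NDUFB7 and ATP5F1D were called in all of these and in each other alternative run. The number of risen nuclear genes was 1, NDUFS1, with library size alone, with the filter at 1 CPM and with DESeq2, and the number of risen mitochondrial genes was 1, MT-CO1, with no filter. The causes of these shifts were not tested. Same-numbered libraries did not vary together over all tested genes (correlation of deviations -0.076 to 0.022, against -0.061 to 0.088 for differently numbered ones). This shows no strong shared effect of the numbers, and whether same-numbered samples were handled together is not given in the sources used here. With a replicate block 3 nuclear genes fell (NDUFB7, ATP5F1D and COX6A1).

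Leaving out each library in turn gave 727 to 1394 fallen and 525 to 1287 risen genes over all tested genes, 2 to 21 fallen and 0 to 1 risen nuclear genes, and 0 to 3 risen mitochondrial genes, the highest numbers all without control replicate 1. Over 70 gene results and all alternatives, 806 values kept their direction and side of the threshold, 72 lost a call, 20 gained one and 63 changed sign.

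Sign changes outside the left-out libraries were of values near 0. In the order DESeq2 size factors, library size alone, mitochondrial counts left out, no filter, 1 CPM filter and DESeq2, the log2 fold change of COX7A2L was 0.0052, 0.013, 0.0060, 0.010, 0.0058 and 0.0053, and that of SDHC was 0.0028, 0.0073, 0.0036, 0.0077, 0.0030 and 0.0033. With library size alone MT-ND3 was at 0.0038, MT-ND4L at 0.0018 and NDUFAF6 at 0.0050. With no filter MT-ND3 was at 0.00074 and NDUFAF6 at 0.0041, with the replicate block MT-ND4L was at 0.0086, and with its pseudogenes added SDHA was at 0.023.

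With each library left out, log2 fold changes of mitochondrial genes ran from -0.12 to 0.18 for MT-ND1, -0.10 to 0.17 for MT-ND2, -0.10 to 0.062 for MT-ND3, -0.015 to 0.26 for MT-ND4, -0.18 to 0.21 for MT-ND4L, -0.037 to 0.22 for MT-ND5, -0.11 to 0.18 for MT-CYB, -0.063 to 0.25 for MT-CO2, -0.082 to 0.20 for MT-CO3, -0.040 to 0.27 for MT-ATP6, -0.16 to 0.41 for MT-ATP8 and -0.023 to 0.29 for MT-RNR1. The copies MTATP6P1 and MTND2P28 ran from -0.24 to 0.21 and from -0.13 to 0.26. Nuclear genes that changed sign ran from -0.26 to 0.059 for COX6B2, -0.040 to 0.069 for COX7A2L, -0.11 to 0.032 for CYCS, -0.11 to 0.063 for NDUFA9, -0.024 to 0.11 for NDUFAF5, -0.028 to 0.016 for NDUFAF6, -0.097 to 0.015 for SDHA, -0.098 to 0.086 for SDHC, -0.0077 to 0.075 for SDHD, -0.091 to 0.0027 for SSBP1, -0.016 to 0.088 for TFAM and -0.012 to 0.063 for UQCRC2.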
